A study of Mus musculus with 8 samples.

Results

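The Spred and Sprouty genes encode 7 related inhibitors of the RAS pathway, Spred1, Spred2, Spred3, Spry1, Spry2, Spry3 and Spry4. They were described here in injured carotid arteries of mice that lack microRNA miR-126 and of mice that have it. The members were every noncontrol probe that the array's annotation names for 1 of these genes, which gave 8 of 55681 probes. Spred1 had 2 probes and each other gene had 1.

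The samples came from 4 mice with the genotype miR-126-/-/ApoE-/- and 4 mice with the genotype miR-126+/+/ApoE-/-, with 1 single-colour array per mouse. All were females of 6 weeks on a mixed genetic background and a western-type diet, and all lacked apolipoprotein E, which raises plasma cholesterol. The carotid artery had been injured with a wire, which removes the endothelium and is followed by growth of a new inner layer, and was taken on day 14. The RNA was that of the whole artery, so fewer cells of a type and less RNA per cell cannot be told apart. The sources used here do not say which part of the miR-126 locus was disrupted.

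Growth factor receptors switch on the small GTPase RAS, which activates RAF and, through MEK, the kinase ERK. Sprouty proteins are made in response to this signal and dampen it, and the related Spred proteins hold RAS in check by bringing the RAS GTPase-activating protein neurofibromin to the membrane. Spred1 is a known target of miR-126 in endothelial cells, where loss of the microRNA is reported to raise Spred1 and weaken the response to vascular growth factors.

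The microRNA is shown because the genotypes compared differ in it, per the labels. Its precursor lies at chr2:26591357-26591429 on the plus strand (RefSeq, build GRCm38.p6) and is held in an intron of Egfl7. The capitals in the mature strand mark the seed, bases 2 to 8, and the capitals in the precursor mark the mature strand.
mmu-miR-126a-3p: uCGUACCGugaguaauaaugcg
microRNA 126a precursor: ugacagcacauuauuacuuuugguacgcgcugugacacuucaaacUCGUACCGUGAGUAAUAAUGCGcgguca
The DNA letters that pair with the whole seed are CGGTACG. In the probe sequences as given they occurred in 0 of the 8 Spred and Sprouty probes and in 11 of all 55681 probes (0.0198%). Their reverse complement occurred in 0 of the 8 probes and in 5 of all probes (0.00898%). Each of the 8 probes is 60 bases long and covers a small stretch of its transcript, so the search does not bear on the rest of each transcript.

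Between 55.9% and 61.5% of probes were well above background on an array, the 75th percentile of signal ran from 617.0 to 861.0 intensity units, and 0 noncontrol spots were saturated. On the log2 scale, Egfl7, the endothelial gene that holds miR-126, lay above its array's 75th percentile by 6.26 ± 0.18 in miR-126-/- arteries. In miR-126+/+ arteries it lay above by 5.79 ± 0.17 (SD, n = 4 each, limma adjusted p = 0.266). Apoe lay above that percentile by 2.37 ± 0.28 and 1.77 ± 0.53 (limma adjusted p = 0.507). Neither probe is known to lie in a disrupted part, so neither checks the labels. The miR-126-/- arrays filled row 2 of the slide and the miR-126+/+ arrays row 1, and an effect of that position cannot be told apart from genotype. Array miR-126-/- 4 had a dim area that was left out, and 1 Spred1 spot lay in it. All 15 smooth muscle and all 20 endothelial marker genes were measured, and each was well above background on all arrays that gave a value.

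Values below are processed signals on the log2 scale, each set against its own array's 75th percentile, so that 0 stands for that percentile. No member differed between the genotypes past the threshold. Of the 8 probes, 6 probes for 5 genes were bright enough to test, and 0 had an adjusted p under 0.05 in limma, against 0.0431% of the 32483 probes tested. At an unadjusted p under 0.05 the count was also 0, against 10.1% of all tested probes. The fitted difference was below 0 for 5 of the 6 probes and above 0 for Spry2, with adjusted p from 0.570 to 0.961. Over all tested probes 52.8% were below 0. The median was -0.13 for the 6 probes and -0.01 over all tested probes.

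**Figure D1:**
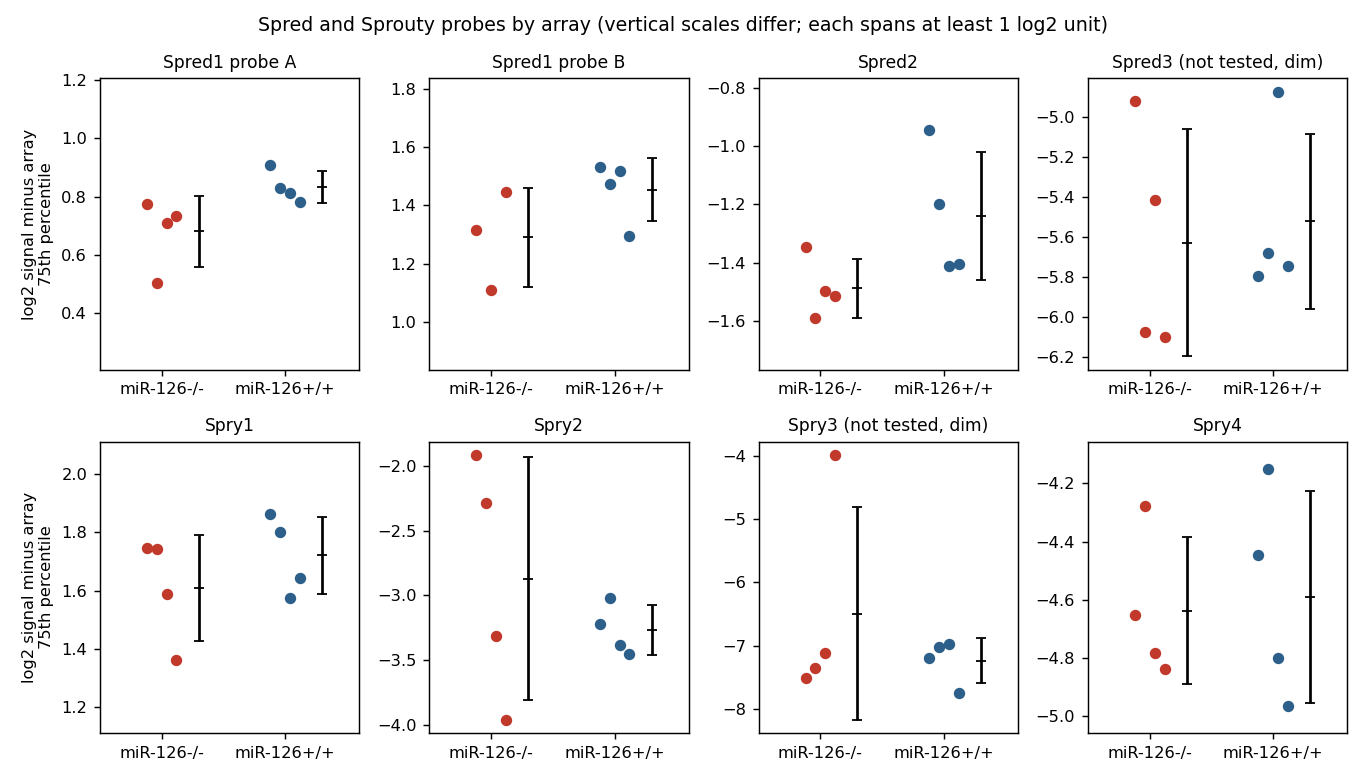
Log2 signal above or below the array's 75th percentile for the 8 Spred and Sprouty probes, with 1 point per array, miR-126-/- in red on the left and miR-126+/+ in blue on the right of each panel; bars are mean ± SD. Spred1 probe A lies lower on every miR-126-/- array (0.50 to 0.77) than on any miR-126+/+ array (0.78 to 0.91), and the genotypes overlap in the other 7 panels.

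Spred1, the member that miR-126 is known to target, had a lower mean in miR-126-/- arteries by both of its probes, and neither difference passed. Probe A (chr2:117004952-117005011, mm9) gave 0.77, 0.50, 0.71 and 0.74 in miR-126-/- arteries and 0.91, 0.83, 0.81 and 0.78 in miR-126+/+ arteries. Every miR-126-/- value lay below every miR-126+/+ value, by as little as 0.77 against 0.78. The means were 0.68 ± 0.12 and 0.83 ± 0.05 (SD, n = 4 each), and the difference was -0.15 ± 0.09 (SE, limma adjusted p = 0.644). An exact permutation test over 70 arrangements gave p = 0.0286, two-sided and unadjusted, which is the smallest it can give. Non-overlap in this direction was found for 2.92% of all tested probes. Over the other 5 probes in the fit the exact permutation p ran from 0.0857 for Spred2 to 0.857 for Spry4. Spred1 probe A did not reach 0.05 with the deposited table, with the percentile taken over probes detected on every array, with quantile normalization or with normexp.

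Probe B of Spred1 (chr2:117005906-117005965, mm9) had a difference of like size on fewer arrays. Its spot on array miR-126-/- 4 lay in an area where that array is dim and was left out, so that 3 miR-126-/- arrays entered the fit. The values were 1.32, 1.11 and 1.45 in miR-126-/- arteries and 1.53, 1.47, 1.52 and 1.30 in miR-126+/+ arteries. The lowest miR-126+/+ value stood below the miR-126-/- values 1.32 and 1.45, so the genotypes overlapped. The means were 1.29 ± 0.17 (SD, n = 3) and 1.45 ± 0.11 (SD, n = 4), with a difference of -0.16 ± 0.12 (SE, limma adjusted p = 0.713). With the dim spot kept, which reads -5.17, the difference was -1.78.

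The 95% intervals of Spred1 are those of the main fit. They cover the spread between arrays, and not the slide row, the cell types in the artery or the choice of processing. The interval of probe A ran from -0.36 to 0.06, which as a ratio of miR-126-/- to miR-126+/+ is 0.779-fold to 1.04-fold. That of probe B ran from 0.734-fold to 1.08-fold. Probe A moved by over 1.5 times under 4 alternatives. Background correction of the unprocessed spot signals with normexp gave -0.01, with overlapping genotypes, leaving out array miR-126-/- 2 gave -0.09, and the endothelial and adipocyte marker means as covariates gave -0.07 and -0.10. For probe B, leaving out that array gave -0.07, and either covariate gave -0.05.

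Over the 7 arrays with both values, the 2 Spred1 probes varied together (Pearson r = 0.853, exact permutation p = 0.0413; Spearman rho = 0.821, exact permutation p = 0.0341). Without the 2 arrays farthest from the median of probe A, r was 0.264, so the relation rests on those arrays. The 5 named genes whose probe was most like Spred1 probe B over the 7 arrays had r from 0.969 to 0.988 with it. They were Ppp2ca, a catalytic subunit of protein phosphatase PP2A (r = 0.988), the ubiquitin-conjugating enzyme gene Ube2e1, Strap, Clba1 and the RNA-binding protein gene Larp4b. Their own differences ran from -0.20 to -0.11, and 0 of them passed in limma (adjusted p from 0.633 to 0.765). They were the highest among all tested probes, so these values are a description.

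Spred2, a paralogue that also restrains RAS and ERK, was the member with the smallest p in limma. Its probe (chr11:19922416-19922475, mm9) gave -1.35, -1.59, -1.50 and -1.52 in miR-126-/- arteries and -0.95, -1.20, -1.41 and -1.40 in miR-126+/+ arteries. All miR-126-/- values but that of mouse 1 lay below all miR-126+/+ values. The means were -1.49 ± 0.10 and -1.24 ± 0.22 (SD, n = 4 each), and the difference was -0.25 ± 0.13 (SE, 95% interval -0.54 to 0.04, limma adjusted p = 0.570). The adipocyte marker mean as a covariate gave -0.04, and leaving out array miR-126+/+ 1, the highest, gave -0.15.

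Cell type markers gave these values on the same arrays as Spred1 and Spred2. The mean of the 20 endothelial markers, each gene centred over the 8 arrays, was -0.07, 0.28, 0.06 and 0.20 in miR-126-/- arteries and -0.03, -0.27, -0.14 and -0.03 in miR-126+/+ arteries. It overlapped between the genotypes only through miR-126-/- 1. In miR-126-/- arteries 18 of these markers were higher, 2 were lower and 0 passed in limma, with 6 at an unadjusted p under 0.05. Egfl7, the gene that holds miR-126, is among the 20 markers and among these 6. All 17 adipocyte markers were higher, with a median of 1.29 and 0 passed, 14 of them at an unadjusted p under 0.05. Cfd and Fabp4, those of highest signal, averaged 7.97 and 7.72 in miR-126-/- arteries and 6.99 and 6.71 in miR-126+/+ arteries. The lymphocyte list had a median of 0.79 over 13 tested genes, all of them higher, with 0 passed and 4 at an unadjusted p under 0.05. For smooth muscle, macrophage, Schwann cell and skeletal muscle markers the medians ran from -0.06 to 0.21 and 0 passed. Of the 15 smooth muscle markers 13 were higher and 2 lower, with a median of 0.18, near the endothelial median of 0.20. The adipocyte mean did not overlap between the genotypes, and the endothelial mean did so only through miR-126-/- 1. A fit with either as a covariate therefore cannot cleanly separate it from genotype, for any gene here. The part of these cell types in the Spred values was not tested.

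Spred3, a paralogue best known from brain, was at the limit of detection. Its probe (chr7:29944517-29944576, mm9) exceeded background clearly on 1 of 4 miR-126-/- arrays and 0 of 4 miR-126+/+ arrays. The values were -4.92, -6.07, -5.41 and -6.10 in miR-126-/- arteries and -5.79, -5.68, -4.87 and -5.74 in miR-126+/+ arteries, and the genotypes overlapped throughout. The probe was not tested and no fold is given.

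**Figure D2:**
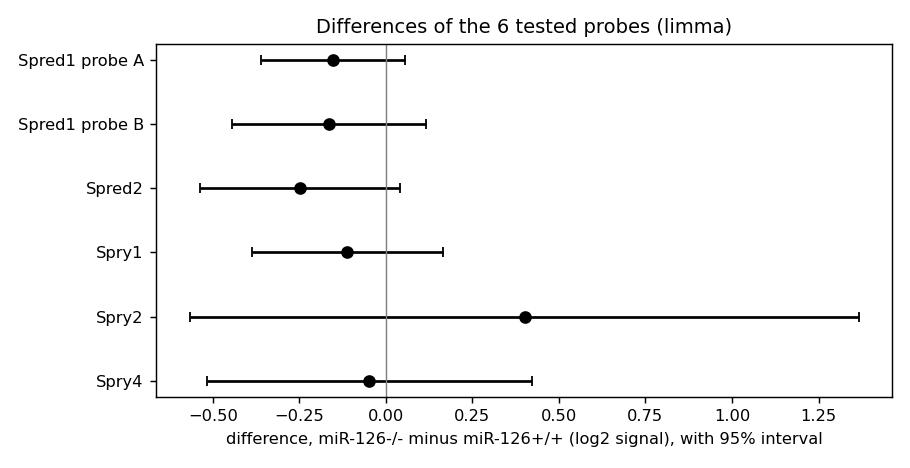
Fitted difference (miR-126-/- minus miR-126+/+, log2 signal) with its 95% interval from limma for the 6 tested probes. Every interval includes 0. The intervals of Spred1, Spred2 and Spry1 end at 0.16 or below, and that of Spry2 ends at 1.37.

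Spry1, a feedback inhibitor that growth factors induce, differed by less than the spread between mice. Its probe (chr3:37543403-37543462, mm9) gave 1.75, 1.74, 1.59 and 1.36 in miR-126-/- arteries and 1.86, 1.80, 1.58 and 1.64 in miR-126+/+ arteries. The lowest value was that of miR-126-/- 4 and the genotypes overlapped. The difference was -0.11 ± 0.12 (SE, 95% interval -0.39 to 0.16, limma adjusted p = 0.809). It was -0.03 without miR-126-/- 4 and -0.06 without miR-126+/+ 1. The adipocyte covariate turned it to 0.06, and the endothelial covariate gave -0.05.

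Spry2, the most widely studied inhibitor of receptor tyrosine kinase signalling in the family, varied more between miR-126-/- mice than any other tested member. Its probe (chr14:106291845-106291904, mm9) gave -1.91, -2.29, -3.32 and -3.96 in miR-126-/- arteries and -3.22, -3.02, -3.39 and -3.46 in miR-126+/+ arteries. Mice 1 and 2 of the miR-126-/- genotype lay above every miR-126+/+ mouse, mouse 4 lay below every one, and mouse 3 lay among them. The SD was 0.94 in miR-126-/- and 0.19 in miR-126+/+ arteries (n = 4 each), a difference in spread that was not tested. The difference in means was 0.40 ± 0.42 (SE, 95% interval -0.57 to 1.37, limma adjusted p = 0.802). Its size depended on single arrays in both directions. The difference was 0.08 without miR-126-/- 1 and 0.21 without miR-126-/- 2, but 0.76 without miR-126-/- 4.

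Genes of neighbouring tissues also varied over these arrays. The mean of 16 skeletal muscle markers, each gene centred over the 8 arrays, was 2.88, 0.24, -1.46 and -1.13 in miR-126-/- arteries and -1.64, 2.62, 0.31 and -1.81 in miR-126+/+ arteries. In each genotype the array highest in muscle markers was also the highest in Spry2. The mean of 17 adipocyte markers was 0.20, 0.52, 0.84 and 0.98 in miR-126-/- arteries and -1.22, -0.28, -1.12 and 0.07 in miR-126+/+ arteries, without overlap. Among the miR-126-/- arrays the order by adipocyte mean was the reverse of the order by Spry2, which was not so among the miR-126+/+ arrays. Without the array of each genotype highest in muscle markers, an alternative chosen after seeing the data, the Spry2 difference was 0.17, but with the muscle mean as a covariate on all arrays it was 0.34, close to the 0.40 without one. With the adipocyte or the endothelial mean as a covariate it was 1.19 or 0.83. The adipocyte mean was split by genotype, as was the endothelial mean but for array miR-126-/- 1. Neither covariate can thus be cleanly separated from genotype. The part of muscle or fat in the Spry2 values was not tested beyond the fits given.

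**Figure D3:**
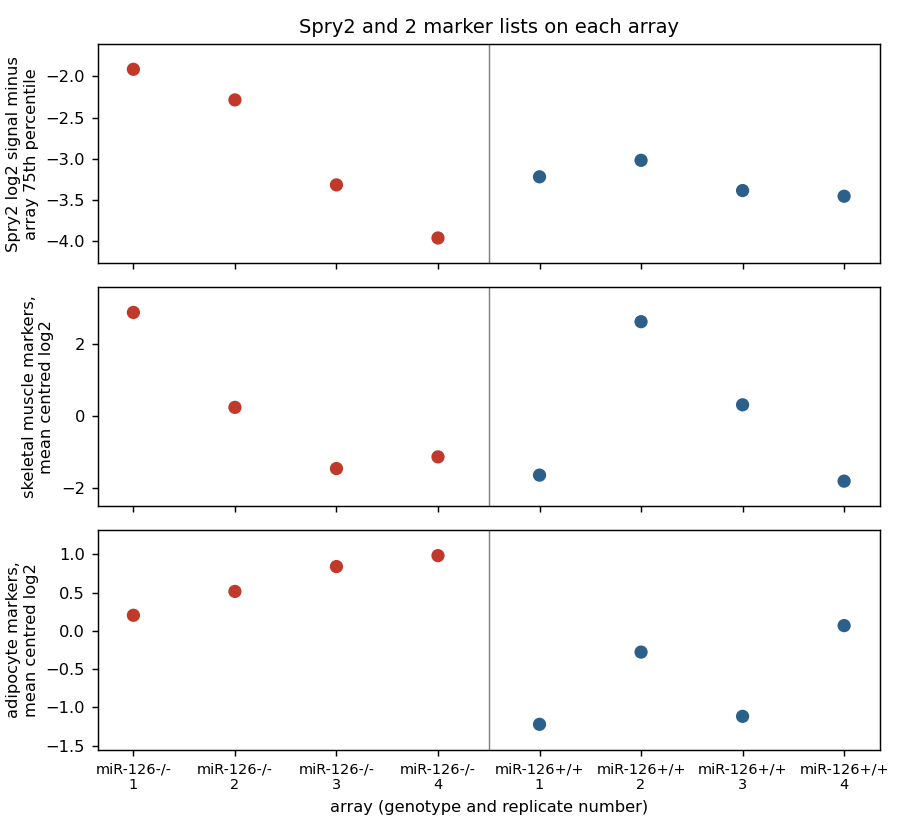
Spry2 log2 signal (top), mean of skeletal muscle markers (middle) and mean of adipocyte markers (bottom, both in log2 units with each gene centred over the 8 arrays) on each array, miR-126-/- in red on the left and miR-126+/+ in blue on the right. Spry2 is highest on miR-126-/- 1 (-1.91), which also has the highest muscle mean (2.88).

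Spry4, an inhibitor reported to act upstream of RAS activation, was dim. Its probe (chr18:38745923-38745982, mm9) gave -4.65, -4.28, -4.78 and -4.84 in miR-126-/- arteries and -4.45, -4.15, -4.80 and -4.96 in miR-126+/+ arteries. It exceeded background clearly on 4 of 4 miR-126-/- arrays and 3 of 4 miR-126+/+ arrays, and the genotypes overlapped. The difference of -0.05 ± 0.20 (SE, 95% interval -0.52 to 0.42, limma adjusted p = 0.961) turned its sign in 7 of 23 alternatives.

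Spry3, the X-linked Sprouty gene, was not clearly above background on 7 of 8 arrays. Its probe, placed at chrX_random:101429-101488 of mm9, gave -7.50, -7.35, -7.12 and -3.99 in miR-126-/- arteries and -7.20, -7.03, -6.97 and -7.74 in miR-126+/+ arteries. It exceeded background clearly on miR-126-/- 4 alone, at 42.8 intensity units, against 4.0 to 6.3 units on the other arrays. The spot carried no outlier mark and lay outside the dim area. The probe did not enter the fit, and no fold is given.

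The members differed in how much they varied within a genotype. The pooled SD within a genotype was 0.094 for Spred1 probe A, smaller than for all but 8.06% of tested probes, and 0.14 for probe B. It was 0.16 for Spry1 and 0.17 for Spred2, and 0.31 for the dim Spry4 probe. Spry2, at 0.68, had a larger SD than 92.4% of tested probes, whose median was 0.22. Of 10 pairs of the 5 tested genes (brightest probes), 0 correlated across arrays after adjustment over the 10 pairs. The highest r were those of Spry1 with Spry4 (r = 0.693, exact permutation p = 0.0398, adjusted p = 0.174; rho = 0.738, exact permutation p = 0.0458, adjusted p = 0.144) and Spred2 with Spry1 (r = 0.656, exact permutation p = 0.0398, adjusted p = 0.174; rho = 0.738, exact permutation p = 0.0458, adjusted p = 0.144). By rank, Spry2 with Spry4 had rho = 0.81 (exact permutation p = 0.0218, adjusted p = 0.144). Without the 2 arrays farthest from the median of the gene named first, r was 0.816 for Spry1 with Spry4 and 0.213 for Spred2 with Spry1. Without array miR-126-/- 2, 1 pair passed, Spred2 with Spry1.

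The genes that work with Spred and Sprouty proteins were read through 7 lists, each gene by its brightest probe. Of 105 distinct genes tested, 1 passed over all probes, against 0.0546% of 23830 genes, and 12 had an unadjusted p under 0.05, against 10.3% of genes. In all, miR-126-/- arteries had 66 lower and 39 higher genes, so that 62.9% were lower, against 52.6% of all genes. The lists were chosen with earlier results of these data known, so these counts are a description and cannot show an excess.

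At the top of the pathway, 15 genes of fibroblast growth factor signalling, which induces Sprouty genes, were tested. Of these 3 were higher and 12 lower, 0 passed, and the median was -0.13. Flrt3, a membrane protein that binds FGF receptors, had a difference of -0.56 ± 0.16 (SE, limma adjusted p = 0.275), with -0.58 and -0.69 from its other probes. Klb, the co-receptor of FGF21 that adipose tissue expresses, had 1.24 ± 0.40 (limma adjusted p = 0.349), with overlapping genotypes. The adipocyte marker means did not overlap, and the part of adipose tissue in the Klb difference was not tested. Of 17 other receptor tyrosine kinases 10 were higher and 7 lower, and 0 passed. Flt4, the receptor of the lymphatic growth factor VEGF-C, was lower on every miR-126-/- array, with -2.70 ± 0.20 in miR-126-/- and -2.05 ± 0.17 in miR-126+/+ arteries (SD, n = 4 each; limma adjusted p = 0.171).

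Of 19 tested RAS genes and their activators, 6 were higher and 13 lower, and 0 passed (median -0.05). Nras, a RAS protein, had 1.86 ± 0.16 in miR-126-/- and 2.17 ± 0.08 in miR-126+/+ arteries without overlap (SD, n = 4 each; limma adjusted p = 0.376). The difference was -0.30 by this probe and smaller by its other probes, at -0.21 and -0.13 (limma adjusted p = 0.45 and 0.72). Rasgrp3, an exchange factor that activates RAS in endothelial and B cells, had 0.32 ± 0.13 and -0.06 ± 0.23, also without overlap (limma adjusted p = 0.391). Among 10 RAS GTPase-activating proteins, which switch RAS off as the partners of Spred proteins do, 3 were higher, 7 lower and 0 passed (median -0.01). Rasal1 was the one with an unadjusted p under 0.05, at -3.24 ± 0.32 in miR-126-/- and -2.60 ± 0.12 in miR-126+/+ arteries (SD, n = 4 each; limma adjusted p = 0.244). Of 15 genes whose proteins bind Spred or Sprouty, 6 were higher, 9 lower and 0 passed. By their brightest probes, 0 had an unadjusted p under 0.05 in limma. Cav1, the caveolin that binds Spred and Sprouty proteins, had a difference of 0.30 ± 0.17 (SE). Prkcd, a protein kinase C that Sprouty proteins bind, had -0.17 ± 0.10, and its other probe had -0.23 ± 0.09 (SE, limma adjusted p = 0.425).

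Of 17 genes that ERK signalling induces, 6 were higher, 11 lower and 0 passed (median -0.08). Ccnd1, which encodes cyclin D1, had a difference of -0.71 ± 0.30 (SE, limma adjusted p = 0.484), Etv4, a transcription factor of the ETS family, -0.57 ± 0.25 (limma adjusted p = 0.508), and Dusp4, an ERK phosphatase, 0.70 ± 0.32 (limma adjusted p = 0.514). Of 16 other inhibitors of receptor signalling, 6 were higher and 10 lower (median -0.08), and 1 passed. That gene was Pebp1, the Raf kinase inhibitor protein, with 6.97, 7.19, 7.08 and 7.34 in miR-126-/- arteries and 6.12, 5.85, 6.19 and 6.00 in miR-126+/+ arteries. The genotypes did not overlap for this probe, with a difference of 1.10 ± 0.12 (SE, limma adjusted p = 0.0339). A second Pebp1 probe had a difference of -0.0006 ± 0.08 (SE, limma adjusted p = 0.999), so the 2 probes disagree. The call was lost without any 1 array other than miR-126+/+ 4, and without the 2 arrays highest in muscle markers. It was also lost with the adipocyte or the endothelial covariate and with the replicate number as a block. The same held with the probes of a gene averaged and without the filter on dim probes.

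**Figure D4:**
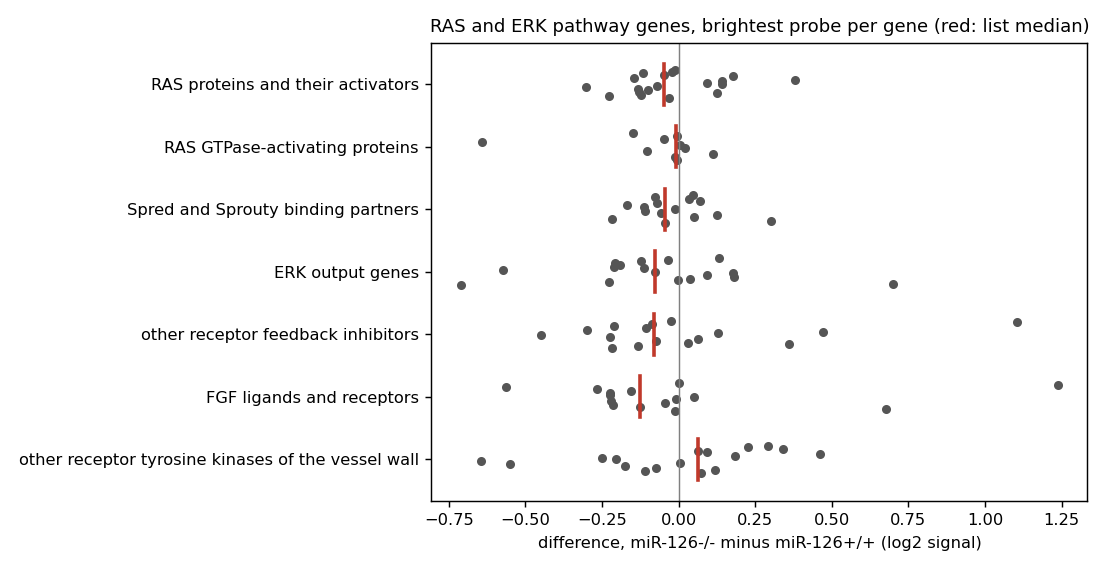
Differences (miR-126-/- minus miR-126+/+, log2 signal) of the tested genes of 7 RAS and ERK pathway lists, with 1 point per gene by its brightest probe and the list median in red. The medians lie between -0.13 and 0.06, and the points farthest right are Klb (1.24) and Pebp1 (1.10).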

How the data were processed

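RNA from 8 injured carotid arteries, 4 per genotype, was measured on single-colour Agilent mouse arrays, 8 on 1 slide. The values are processed signals, which are linear intensity readings with the background taken off, made by the authors with Agilent Feature Extraction 10.7.3.1 per the file headers. The deposited value table holds these same readings, unscaled. Probe positions are on mm9, per the files. Gene names were updated through RefSeq for the 47.4% of probes whose accession matched, and kept as given otherwise.

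Outlier spots and 613 spots where array miR-126-/- 4 is dim (rows 55 to 100, columns 56 to 70) were left out. Signals were taken as log2, scaled by each array's 75th percentile, and averaged per probe. Probes well above background on at least 3 arrays of a genotype, 32483 of 55681, were fitted with limma 3.58.1 (R 4.3.3) on genotype, and p-values were adjusted by Benjamini-Hochberg with a threshold of 0.05. Exact permutation tests are two-sided. The fit was tested on simulated data. The number of arrays limits the precision.

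The text names all members, Egfl7, Apoe, up to 4 genes with the smallest p per pathway list with any that passed, further marker genes of highest signal, and the 5 genes most like the brightest Spred1 probe. Members, lists and rules were chosen with earlier results of these data known. The alternatives were other background correction, scaling, filters, probe summaries and fits, marker covariates, the replicate number as a block, and leaving out each array.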

Additional observations from a re-analysis of the deposited data

Results flagged for a closer look

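The scan took 86 groups of 4 arrays, counting that of Spred1 probe B in miR-126-/- arteries, which had 3 arrays and was skipped. In 7 groups an array had a gap to the others above Dixon's 95% critical value. Chance gives about 1 in 20 such groups. Spry3 stood at -3.99 on array miR-126-/- 4, where the next highest miR-126-/- value was -7.12. This is the spot at 42.8 intensity units, and the gene has 1 probe. Spred3 stood at -4.87 on miR-126+/+ 3, with the next highest miR-126+/+ value at -5.68, although the spot was not well above background on that array. Rasa1, a RAS GTPase-activating protein, stood at -0.0926 on miR-126+/+ 1, above the next value of -0.39 in that genotype. Flrt3 had such an array in both genotypes, at 0.59 on miR-126-/- 1, above the next value of 0.10, and at 0.50 on miR-126+/+ 4, below the next value of 0.81. The marker means of array miR-126+/+ 3 were high in both immune lists, at 0.21 for macrophages with the next value at -0.01, and at 0.28 for lymphocytes with the next value at -0.59.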

How the results depend on the processing

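The count of Spred and Sprouty probes that passed was 0 in all 24 alternatives. Of 140 differences of members under alternatives, 132 kept their direction without passing and 8 turned. Spry1 turned with the adipocyte covariate (0.056). Spry4 turned with the adipocyte (0.14) and endothelial (0.014) covariates and without the 2 arrays highest in muscle markers (0.10, chosen after seeing the data). Leaving out single arrays gave Spry4 -0.17 to 0.10, with 0.0013 without miR-126-/- 3, 0.019 without miR-126-/- 4, 0.00061 without miR-126+/+ 1 and 0.099 without miR-126+/+ 2. The cause was not tested. The exact permutation test gave 1 member at 0.05 or below, Spred1 probe A. It gave 0 with the percentile taken over probes detected on every array (smallest p 0.0857) and with the deposited table (smallest p 0.0571), and 0 with any single array left out, where 0.0571 is the smallest p possible. With normexp the 1 member was Spred2, and with quantile normalization it was Spry3. The Spry3 values are not clearly above background on 7 of 8 arrays and carry no order. Of all probes 14 passed, against 48 with normexp, 6 above background on all arrays, 30 by brightest probe per gene and 73 with array weights. The count was 0 in limma with the adipocyte covariate (1445 at an unadjusted p under 0.05), the endothelial covariate (1688) and without the 2 muscle-rich arrays (2710). Both covariates largely follow genotype, so calls lost with them do not show what part the tissues had. Leaving out single arrays gave 0 to 57, with 5, 0 (2581 unadjusted) and 4 when miR-126-/- mice 1, 2 and 3 were dropped in turn, and 7, 3 and 57 when miR-126+/+ mice 1, 2 and 4 were. Among listed genes 1 passed (Pebp1), and 0 without the dim-probe filter, with probes of a gene averaged, with both covariates or without the 2 muscle-rich arrays, and 0 to 1 without single arrays. Correlated pairs of members numbered 0, and 0 to 1 without single arrays. Arrays with the same replicate number did not deviate together (r = 0.18, -0.31, -0.04 and 0.01). The highest r of each miR-126-/- array with any miR-126+/+ array of another number was 0.41, 0.21, 0.10 and 0.25. A highest value over several arrays tends to exceed a single one, so these values do not decide whether arrays were paired. With the replicate number as a block 0 probes passed (2959 at an unadjusted p under 0.05), with 0 members and 0 listed genes. For Spred3 and Spry3, signal near background limits what can be detected.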
